A study of Mus musculus with 15 samples.

Results

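Fatty acid loading without lipopolysaccharide (LPS) was described from 7 of the 15 Illumina mouse bead arrays of the series, chosen by their titles: 4 arrays of fatty acid-loaded macrophages (FA) and 3 of unstimulated macrophages (Unstim). The cells were peritoneal macrophages of mice, drawn into the abdominal cavity by injected 3% thioglycollate broth, an irritant, and left to adhere to plastic before further culture. The later culture medium of both groups held 5.5 mM glucose and 0.5% serum. Both received vehicle, not LPS, for 24 h before RNA was extracted. The FA cells had been loaded with fatty acid and the Unstim cells had not. The sources used here do not name the fatty acid, its dose, the loading time, the strain, sex and age of the mice, or how many animals stand behind a culture. The labels number the arrays by experiment (E1 to E4), and the series' design text calls the experiments independent, so the spread within a group is one between experiments. FA arrays come from E1, E2, E3 and E4 and Unstim arrays from E1, E3 and E4, which leaves 3 complete pairs. All arrays of a group are bulk cultures, in which fewer cells of a type and less RNA per cell cannot be told apart.

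A macrophage that takes up more fatty acid than it burns joins it to coenzyme A and stores it as triglyceride in lipid droplets, which perilipins coat. Stored triglyceride is cut again by lipases, and the released acyl chains enter mitochondria through the carnitine shuttle for oxidation. Fatty acids also bind nuclear receptors of the PPAR family, which switch on genes of uptake, storage and oxidation, and unsaturated fatty acids are known to lower the processing of SREBP-1, the transcription factor that drives fatty acid synthesis and desaturation.

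The macrophage label was checked against markers. The mean normalized log2 signal of 10 tested macrophage markers (Adgre1, Csf1r, Itgam, Cd14, Mertk, Lyz2, Tyrobp, Fcgr1, Marco and Msr1) lay between 8.717 and 8.867 on FA arrays and between 8.736 and 8.858 on Unstim arrays. Mean levels of 7 neutrophil, 4 B cell, 7 dendritic cell, 8 mesothelial and fibroblast, and 2 eosinophil and mast cell markers lay between 5.944 and 6.429 on FA arrays and between 5.99 and 6.424 on Unstim arrays, with overlapping groups for each list. Of 10 T and NK cell markers, 1 was tested, Il7r, at 9.958 to 11.25 on FA arrays and 10.41 to 11.04 on Unstim arrays, and the defining genes Cd3e, Cd3d and Cd3g were not among the genes tested. The 3 tested adipocyte markers (Adipoq, Lep and Fabp4) averaged 6.134 to 6.158 on FA arrays and 6.19 to 6.195 on Unstim arrays, near background and without overlap. No marker of any list passed the test. The array FA_E1 was dim: the 95th percentile of its log2 signal was 7.77, against 8.53 to 9.57 on the other 14 arrays, and 16756 of its probes were above background, against 18945 to 19973.

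Fatty acid loading alone moved few genes past the test, and the desaturase Scd1 was the only one called. Of 12984 genes tested with limma over all 15 arrays, 1 had a Benjamini-Hochberg adjusted p below 0.05, which is 0.0077% of them, and it was lower in FA cells. With the experiment as a block, 3 genes were called (0.0231%), all of them lower in FA cells: Scd1, the interferon-induced Ifi27l2a and the itaconate-forming enzyme Acod1. No gene was called higher with limma in either fit. At an unadjusted p below 0.05 the count was 374 genes (2.88%), 179 higher (1.38%) and 195 lower (1.5%), and with the block 658 genes (5.07%), 318 higher (2.45%) and 340 lower (2.62%). Where no gene differs, a share of about 0.05 reaches this cut. The count without the block lay below that share, and the count with the block lay near it. The median log2 difference over all genes was -0.00109.

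Scd1 encodes stearoyl-CoA desaturase, which turns saturated acyl-CoA into monounsaturated acyl-CoA. Its normalized log2 signal was 6.64, 6.69, 6.60 and 6.60 in FA cells of E1 to E4, against 8.52, 8.54 and 8.47 in Unstim cells of E1, E3 and E4. The 4 FA arrays were within 0.1 of each other, the 3 Unstim arrays likewise, and the groups were far apart. The mean was 6.63 ± 0.042 in FA cells (SD, n = 4) and 8.51 ± 0.037 in Unstim cells (SD, n = 3). Scd1 fell by 1.88 ± 0.14 (SE) on the log2 scale, a 3.67-fold difference in signal (limma, adjusted p = 2.16e-05). The ± after a log2 difference is its SE throughout. The differences within E1, E3 and E4 were -1.88, -1.93 and -1.87. All 4 FA arrays were above their background level for this probe, but close to it: the deposited log2 signal before normalization was 6.21, 6.62, 6.24 and 6.65 on the FA arrays of E1 to E4, where background ended at 6.00, 5.79, 5.62 and 5.91.

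Scd2, a close relative of Scd1 with the same activity, was also lower in every pair. It measured 5.98, 6.55, 6.30 and 6.05 in FA cells of E1 to E4, against 7.19, 7.49 and 6.90 in Unstim cells of E1, E3 and E4, so the groups did not overlap. The difference was -0.97 ± 0.23 (SE; limma, adjusted p = 1), and -1.08 with the experiment as a block (adjusted p = 0.0618). Scd2 was called in the fit of the 3 complete pairs alone (-1.08 ± 0.10, adjusted p = 0.00922 over all genes), which has 2 residual degrees of freedom. The probe was above background on 3 of 4 FA and 3 of 3 Unstim arrays.

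**Figure D1:**
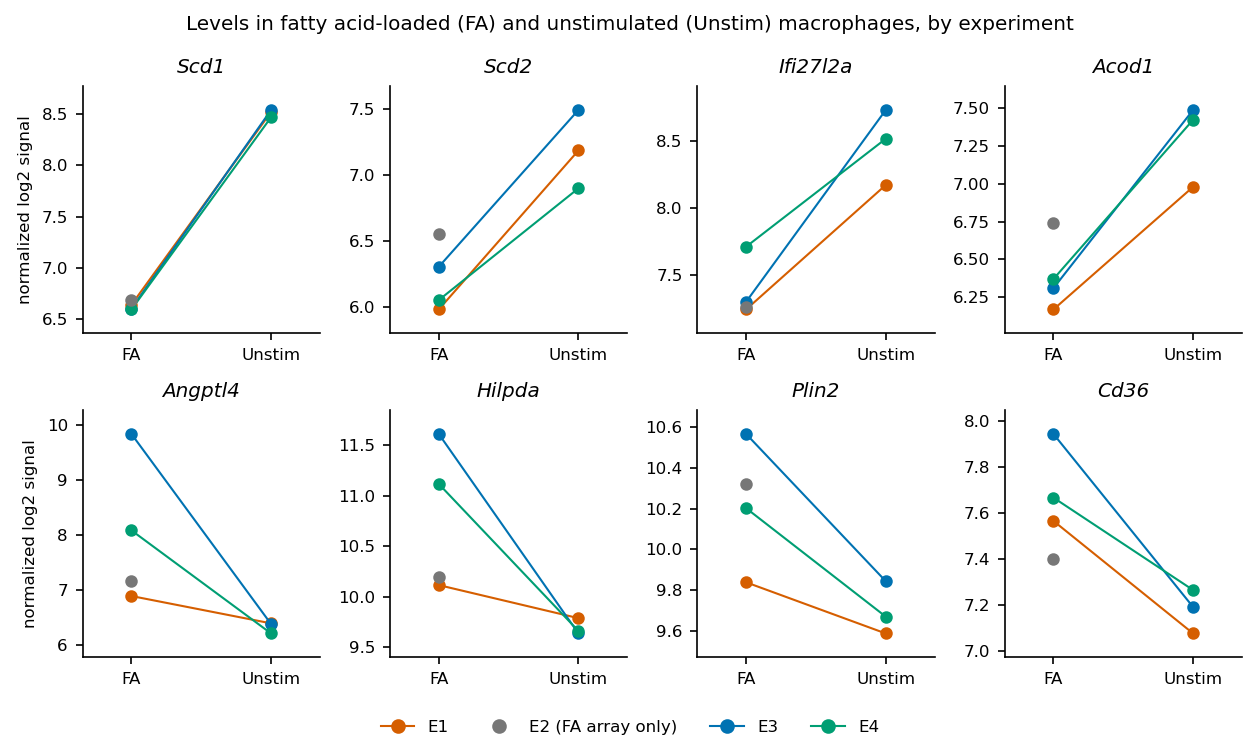
Normalized log2 signal (y axis, a separate scale for each gene) of 8 genes in FA and Unstim cells (x axis). Each point is 1 array, and lines join the arrays of 1 experiment. The FA arrays of Scd1 sit together near 6.6, below all Unstim arrays, while those of Angptl4 and Hilpda are spread widely and are highest in E3.

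The desaturases stood at the low end of a list of 27 genes of fatty acid synthesis and desaturation, of which 21 were tested. Of these, 16 were lower and 5 higher in FA cells, where 50.5% of all genes were lower, 1 was called (Scd1, lower), and the median difference was -0.082, beside -0.00109 over all genes. The FA arrays lay below all Unstim arrays for 6 of the 21, where 2.69% of all genes did so, and 8 of the 21 were lower within each of the 3 pairs, where 12.9% of all genes were. The median of the list was -0.115, -0.074 and -0.106 within E1, E3 and E4. Mid1ip1, a small protein that promotes the assembly of acetyl-CoA carboxylase, measured 9.11, 9.30, 8.84 and 9.28 in FA cells of E1 to E4, against 9.61, 10.23 and 9.55 in Unstim cells (-0.66 ± 0.21, SE, limma, adjusted p = 1). Its difference was widest in E3 (-1.39) and narrowest in E4 (-0.27). Acss2, which makes cytosolic acetyl-CoA from acetate and is named here after its values were seen, measured -0.52 ± 0.18, and the groups did not overlap. Its other probe, near background, measured -0.05 ± 0.06. The delta-5 desaturase Fads1 measured -0.25 ± 0.22 without overlap of the groups. The delta-6 desaturase Fads2 had no FA array above background and all 3 Unstim arrays above it, so its FA level is only a bound (5.905 to 6.001 in FA cells, 6.24 to 6.26 in Unstim cells) and no fold is given. Elovl6, the elongase that acts on palmitate, and Srebf1, which encodes SREBP-1, measured -0.08 ± 0.12 and -0.08 ± 0.11 with overlapping groups. The fatty acid synthase and acetyl-CoA carboxylase 1 genes, Fasn and Acaca, were not analysed here.

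Among genes of storage and lipid sensing, the higher signals in FA cells were those of Angptl4 and Hilpda, and neither passed the test. Angptl4, a secreted inhibitor of lipoprotein lipase and a well-known PPAR target, measured 6.90, 7.17, 9.84 and 8.09 in FA cells of E1 to E4, against 6.4, 6.39 and 6.22 in Unstim cells of E1, E3 and E4. All FA arrays lay above all Unstim arrays, but they were far from each other, lowest in E1 and highest in E3. The mean difference was 1.67 ± 0.62 (SE; unadjusted p = 0.0173, adjusted p = 1, limma), and 1.05 without the FA array of E3. Within E1, E3 and E4 it was 0.50, 3.46 and 1.88. A dimmer probe of Angptl4 measured 0.06 ± 0.11 at a mean level of 5.86, near background. Hilpda, a small lipid droplet protein that inhibits adipose triglyceride lipase, measured 10.12, 10.20, 11.61 and 11.12 in FA cells, against 9.79, 9.64 and 9.66 in Unstim cells. Its difference was 1.07 ± 0.33 (adjusted p = 1), and its other probe gave 1.14 ± 0.36.

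The order of the FA arrays was shared by several of the genes with higher signals. Angptl4, Hilpda, the carnitine carrier Slc25a20 and the C-type lectin Mgl2 were each highest in FA cells of E3 and next highest in those of E4. Mgl2 measured 7.36, 7.31, 9.23 and 8.03 in FA cells of E1 to E4, against 7.15, 7.30 and 7.06 in Unstim cells (0.81 ± 0.41). Scd1 had no such order, with its FA arrays within 0.1 of each other. Its FA level was close to background, where differences between arrays are compressed, so an even response cannot be read from this. The labels give no dose or loading time by experiment.

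Plin2, the perilipin that coats droplets in macrophages, measured 9.84, 10.32, 10.57 and 10.20 in FA cells, against 9.59, 9.84 and 9.67 in Unstim cells. It was higher within each pair (0.25, 0.72 and 0.53) with groups that overlapped by 1 array on each side, and the difference of 0.53 ± 0.25 did not pass the test (unadjusted p = 0.0477, adjusted p = 1, limma). Of 16 tested genes of droplet coat and assembly, 12 were higher and 4 lower, none was called, and the median was 0.044 (-0.061 after median scaling). Cd36, the scavenger receptor that takes up long-chain fatty acids, measured 7.57, 7.40, 7.95 and 7.67 in FA cells, against 7.08, 7.19 and 7.26 in Unstim cells (0.47 ± 0.11, unadjusted p = 0.000843, adjusted p = 1, limma). Its FA arrays all lay above its Unstim arrays. Of the 15 tested uptake and binding genes, 13 were higher and 2 lower, with a median of 0.053 (-0.018 after median scaling) and none called. Lipoprotein lipase, Lpl, measured 0.34 ± 0.25, and the scavenger receptor Msr1 0.32 ± 0.20.

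The PPAR-responsive list had 27 tested genes, of which 20 were higher and 7 lower in FA cells, where 49.5% of all genes were higher, none was called, and the median was 0.092. The FA arrays lay above all Unstim arrays for 7 of the 27, where 2.2% of all genes did so, and 12 were higher within each of the 3 pairs, where 12.7% of all genes were. The medians within E1, E3 and E4 were 0.134, 0.137 and 0.158. Other well-known targets measured near 0. The carnitine palmitoyltransferase Cpt1a measured 0.05 ± 0.07 and the pyruvate dehydrogenase kinase Pdk4 0.09 ± 0.11, both near background, with 2 and 1 of the 3 Unstim arrays above it. The receptor gene Pparg measured -0.07 ± 0.20, and 12 tested genes of lipid-sensing nuclear receptors and coactivators had a median of 0.013 (-0.0187 after median scaling).

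The receptors of the PPAR family bind DNA with a partner, RXR, at repeats of the hexamer AGGTCA. To show where this hexamer lies in some genes measured here, RefSeq promoter windows of 3 genes are printed. These are Cd36 and Plin2, higher in every pair, and Acod1, lower in every pair. The windows (GRCm38.p6) run from 250 bases before to 50 bases after the gene's start, written 5′ to 3′ on the gene's strand. AGGTCA or its reverse complement TGACCT is in capitals. The 3 genes were chosen because their windows hold the hexamer once, so none shows an exact repeat of it. The windows are chr5:17835847-17836146 (minus strand) for Cd36, chr4:86670010-86670309 (minus strand) for Plin2 and chr14:103046762-103047061 (plus strand) for Acod1.
Cd36: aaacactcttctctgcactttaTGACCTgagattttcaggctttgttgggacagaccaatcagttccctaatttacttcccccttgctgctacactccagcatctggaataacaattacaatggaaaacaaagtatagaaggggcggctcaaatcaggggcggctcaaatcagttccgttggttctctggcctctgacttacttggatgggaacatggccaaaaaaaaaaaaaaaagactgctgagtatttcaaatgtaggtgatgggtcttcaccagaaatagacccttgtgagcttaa
Plin2: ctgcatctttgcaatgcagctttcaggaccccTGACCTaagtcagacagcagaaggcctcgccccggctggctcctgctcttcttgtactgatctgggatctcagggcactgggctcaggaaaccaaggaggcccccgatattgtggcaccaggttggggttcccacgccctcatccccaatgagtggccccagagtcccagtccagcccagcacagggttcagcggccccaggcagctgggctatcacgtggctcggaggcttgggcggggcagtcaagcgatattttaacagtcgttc
Acod1: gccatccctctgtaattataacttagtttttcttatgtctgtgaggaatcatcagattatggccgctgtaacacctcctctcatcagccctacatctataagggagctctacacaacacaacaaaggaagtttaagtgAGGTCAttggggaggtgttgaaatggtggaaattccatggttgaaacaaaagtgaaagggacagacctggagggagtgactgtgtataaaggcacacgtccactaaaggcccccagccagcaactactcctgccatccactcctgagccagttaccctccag
Counted from the start, the hexamer begins at -228 in Cd36, -218 in Plin2 and -112 in Acod1, on the reverse strand in Cd36 and Plin2 and on the forward strand in Acod1. On either strand it was found in 7 of the 22 PPAR-responsive genes with a window (31.8%), in 1624 of 10495 tested genes with one (15.5%) and in 5340 of all 32851 windows (16.3%). A match of 6 letters is a description of the window and not a binding site.

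Genes of fatty acid oxidation were mostly higher in FA cells, by small amounts, though their median turned to -0.012 after median scaling, and none was called. Of 31 tested genes, 23 were higher and 8 lower, 7 had all FA arrays above all Unstim arrays (2.2% of all genes did) and none had them below, and 12 were higher within each pair (12.7% of all genes were). The median was 0.096, with 0.126, 0.240 and 0.108 within E1, E3 and E4. Without the dim array FA_E1 it was 0.136. Median scaling brings arrays to a common median in place of quantile normalization, and it moved the median of all genes to -0.049. Etfb, the subunit of the electron transfer flavoprotein that takes electrons from acyl-CoA dehydrogenases, measured 10.48, 10.63, 10.98 and 10.83 in FA cells, against 10.01, 10.20 and 10.20 in Unstim cells (0.59 ± 0.19, unadjusted p = 0.00637, adjusted p = 1, limma), and its other probe gave 0.60 ± 0.18. Slc25a20, which carries acylcarnitines into mitochondria, measured 8.64, 8.79, 9.29 and 9.05 in FA cells, against 8.57, 8.41 and 8.45 in Unstim cells (0.47 ± 0.13). A dimmer probe of it gave 0.22 ± 0.22. Ech1, an isomerase for unsaturated acyl chains, measured 0.50 ± 0.17, the dehydrogenase for long chains Acadl 0.35 ± 0.12, the trifunctional protein subunit Hadhb 0.31 ± 0.13 and Acadvl 0.16 ± 0.12. Hadha, the other subunit of the trifunctional protein, measured -0.05 ± 0.09, and Etfdh, which passes electrons from the flavoprotein to ubiquinone, 0.007 ± 0.117. Eci2, another isomerase, named after its values were seen, measured 0.27 ± 0.10. The tricarboxylic acid cycle, which burns the acetyl-CoA from oxidation, had 14 of 23 genes higher and a median of 0.067 (-0.070 after median scaling), none called.

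**Figure D2:**
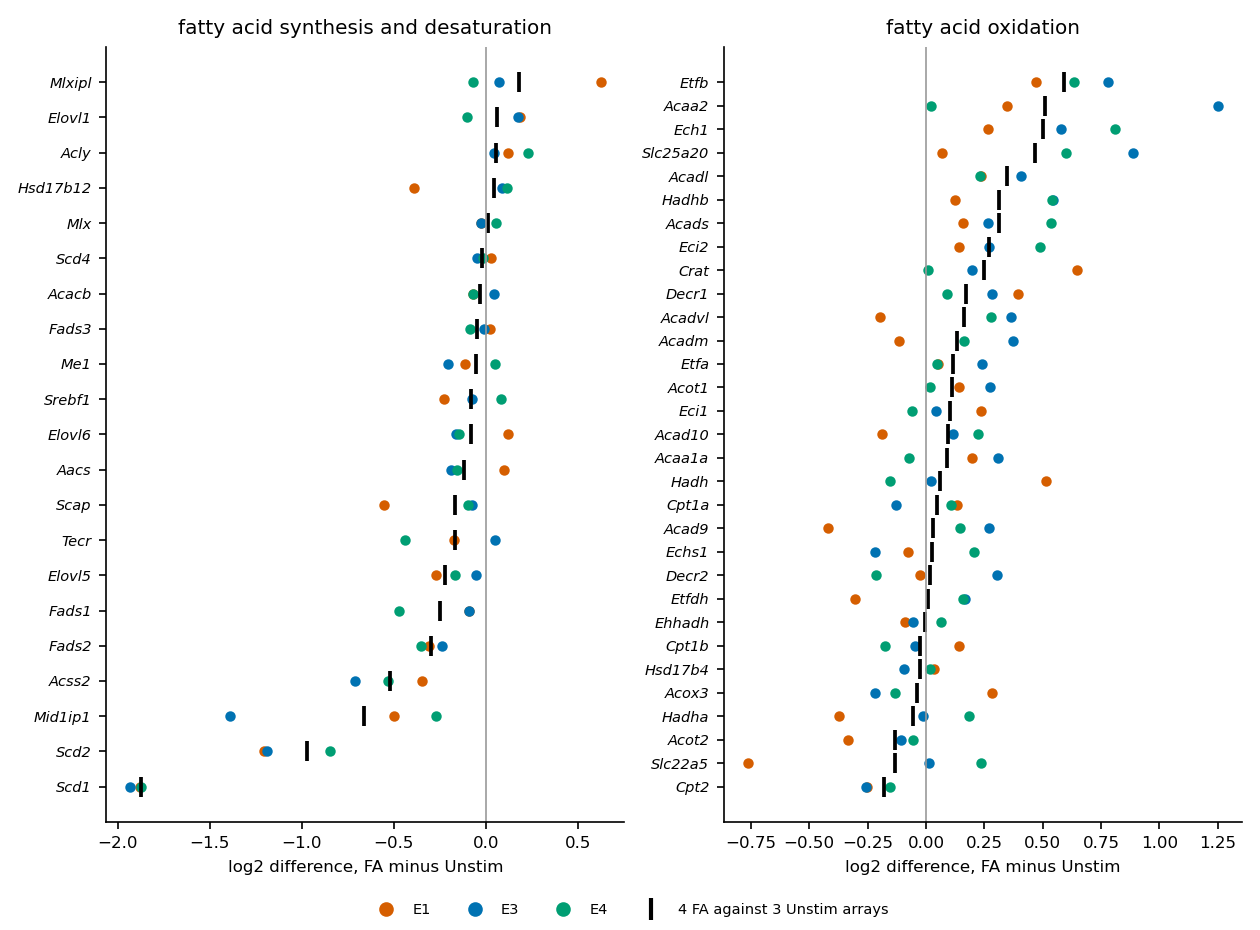
Log2 difference, FA minus Unstim (x axis), of every tested gene of fatty acid synthesis and desaturation (left) and of oxidation (right), 1 row a gene. Points are the differences within E1, E3 and E4, and bars those of the 4 FA against the 3 Unstim arrays. Scd1 lies at -1.88 with its points together, and 23 of 31 oxidation genes lie right of 0, although their median turned to -0.012 after median scaling.

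No gene that builds or breaks triglyceride was called. Of 19 tested genes of acyl-CoA synthesis and esterification, 8 were higher and 11 lower, with a median of -0.005 (-0.0194 to 0.0081 over the alternatives) and none called. Dgat1, which adds the last acyl chain of triglyceride, measured 0.21 ± 0.10, and its FA array of E1 (6.89) stood above those of E2 to E4 (6.42 to 6.50). The acyl-CoA synthetase Acsl3, found on growing droplets, measured 7.12, 7.18, 7.05 and 6.99 in FA cells, against 7.78, 7.41 and 7.24 in Unstim cells (-0.39 ± 0.15). Its groups did not overlap, but it did not pass the test (adjusted p = 1, limma, and 0.419 with the block). Other probes of Acsl3, near background, measured -0.04 and 0.006. The phosphatidate phosphatase Lpin1 measured -0.20 ± 0.11. Of 9 tested lipolysis genes, 6 were higher and 3 lower, with a median of 0.128 (-0.033 after median scaling). That median was 0.031 without the FA array of E4, 0.031 without the Unstim array of E1 and 0.018 with slide as a block. The adipose triglyceride lipase gene Pnpla2 measured 0.27 ± 0.19, hormone-sensitive lipase, Lipe, 0.17 ± 0.06, monoglyceride lipase, Mgll, 0.13 ± 0.17, and the lysosomal acid lipase Lipa 0.48 ± 0.43. Of these, Lipe had all FA arrays (6.22 to 6.35) above all Unstim arrays (6.08 to 6.12), at a dim level. Lysosomal genes as a list had a median of -0.005 over 25 tested genes (-0.166 after median scaling, 0.0212 without the Unstim array of E4).

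No sterol gene was called in either direction. Of 20 tested genes of sterol synthesis and uptake, 16 were lower and 4 higher, with a median of -0.058, and -0.123 with the experiment as a block. Within slide 1 the median of the list was -0.230 and within slide 3 it was 0.021, so the slides had opposite signs. Lss, which closes the sterol rings, measured -0.28 ± 0.30, the mevalonate pathway kinase Pmvk -0.23 ± 0.16 and the sterol desaturase Sc5d -0.13 ± 0.07. Insig1, the sterol-sensing retention protein of SREBP, measured -0.17 ± 0.31, with FA arrays from 6.94 to 8.10. Targets of the oxysterol receptor LXR had 10 of 19 genes higher and a median of 0.004 (-0.102 after median scaling). The cholesterol exporters Abca1 and Abcg1 measured 0.004 ± 0.067 and -0.28 ± 0.21, the first near background with 1 of 4 FA and 1 of 3 Unstim arrays above it, and the LXR gene Nr1h3 measured 0.15 ± 0.12.

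No NF-kB-driven gene was called higher in FA cells, and 1 was called lower with the experiment as a block. Of 35 tested cytokines and mediators that NF-kB drives, 23 were lower and 12 higher, 10 were lower within each pair (12.9% of all genes were) and 3 higher within each pair (12.7% of all genes were), and the median was -0.040. Acod1, the enzyme that makes itaconate from a tricarboxylic acid cycle intermediate, measured 6.17, 6.74, 6.31 and 6.37 in FA cells of E1 to E4, against 6.98, 7.49 and 7.42 in Unstim cells of E1, E3 and E4. The FA signals were above background but close to it. Before normalization they were 6.05, 6.68, 5.93 and 6.36 for E1 to E4, where background ended at 6.00, 5.79, 5.62 and 5.91. All FA arrays lay below all Unstim arrays, by -0.90 ± 0.20 (limma, adjusted p = 1). With the experiment as a block the difference was -0.94 and was called (adjusted p = 0.0448), and its other probe measured -0.31 ± 0.18 (unadjusted p = 0.105). The cytokine Il1a measured -0.49 ± 0.16 and the chemokine Cxcl16 -0.36 ± 0.10, both without overlap, and the neutrophil chemokine Cxcl2 -0.33 ± 0.17. Their other probes measured -0.33 ± 0.16 for Il1a, -0.15 ± 0.14 for Cxcl16 and -0.02 ± 0.27 for Cxcl2. Tnf measured 0.20 ± 0.21, with -0.02 ± 0.20 for its other probe, and Il1b -0.10 ± 0.10 at background level, with 1 of 4 FA and 1 of 3 Unstim arrays above it. Of 25 tested genes of the Toll-like receptor pathway and its regulators, 15 were lower, with a median of -0.040. The LPS co-receptor Cd14 measured 9.99, 10.37, 10.31 and 9.89 in FA cells, against 10.45, 10.81 and 10.62 in Unstim cells (-0.49 ± 0.26), Tlr2 measured -0.25 ± 0.13 and Tlr1 -0.24 ± 0.12.

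Interferon-responsive genes were mostly lower in FA cells, by small amounts, and none was called over all arrays without the block. Of 47 tested genes, 41 were lower and 6 higher, and 20 were lower and none higher within each of the 3 pairs, where 12.9% of all genes were lower in this way. The median was -0.100 and lay at -0.094, -0.216 and -0.098 within E1, E3 and E4, but at -0.024 with the experiment as a block, and at -0.029 within slide 1 against -0.210 within slide 3. Ifi27l2a measured 7.24, 7.26, 7.30 and 7.71 in FA cells of E1 to E4, against 8.17, 8.73 and 8.52 in Unstim cells. The difference of -1.10 ± 0.22 was not called (limma, adjusted p = 1), and that of -1.005 with the block was (adjusted p = 0.0448). Its FA array of E4 stood above the other FA arrays. Ifitm6, of the interferon-induced transmembrane family, measured -0.72 ± 0.16 and was called only without the FA array of E4 (-0.88, adjusted p = 0.0394). Its relatives Ifitm1 and Ifitm3 measured -0.59 ± 0.16 and -0.35 ± 0.15, and all 3 had every FA array below every Unstim array. So did 2.69% of all genes, and Ifitm6 and Ifitm1 met a naming rule that required it. The other probes of Ifitm1 measured -0.03 and 0.006. Irf9, a subunit of the factor that drives these genes, measured -0.21 ± 0.12.

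**Figure D3:**
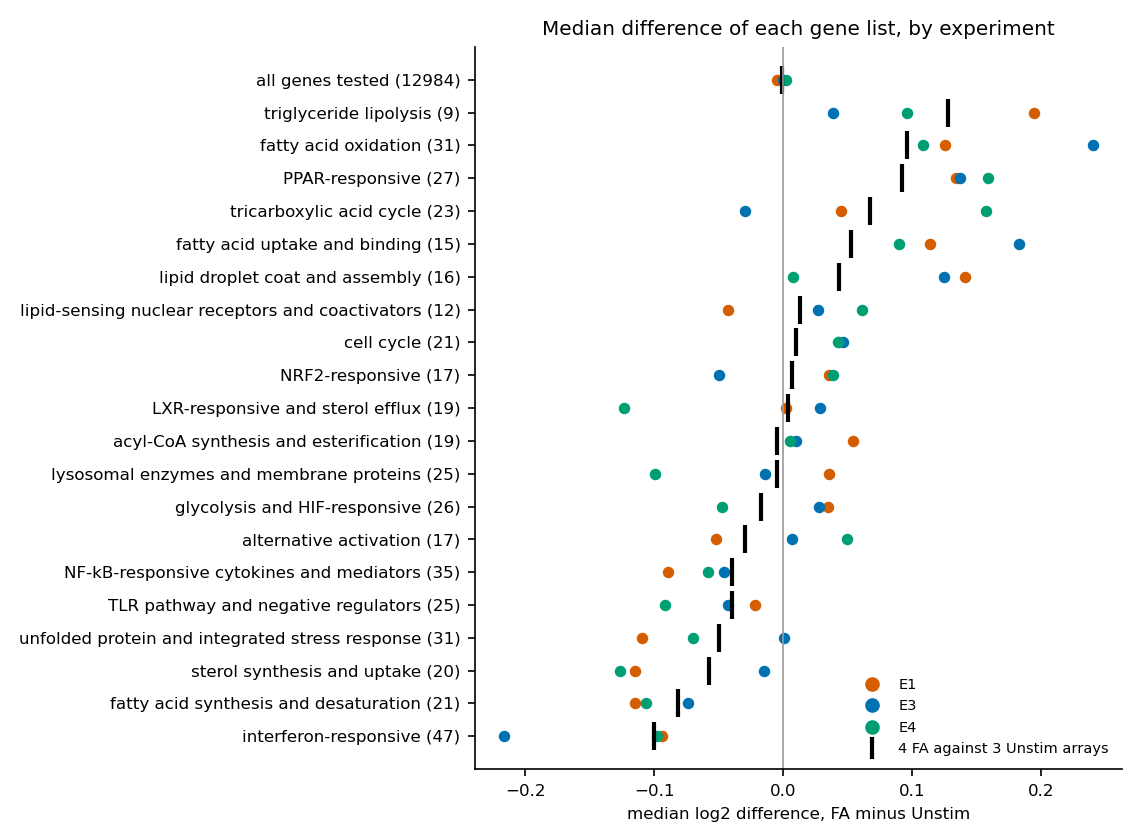
Median log2 difference, FA minus Unstim (x axis), of 20 gene lists and of all genes, with the number of tested genes in brackets. Points are medians within E1, E3 and E4, and bars those of the 4 FA against the 3 Unstim arrays. Medians of the bars run from -0.100 (interferon-responsive, -0.024 with the experiment as a block) to 0.128 (triglyceride lipolysis, -0.033 after median scaling), and that of all genes lies at 0.

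No stress, antioxidant or growth gene passed the test. Of 31 tested genes that endoplasmic reticulum stress or amino acid shortage induces, 20 were lower, with a median of -0.050. Its death-linked factor Ddit3 measured -0.02 ± 0.38 and its target Trib3 -0.20 ± 0.24. The regulator Atf4 measured -0.30 ± 0.22 and the endoplasmic reticulum protein Herpud1 -0.27 ± 0.14. NRF2-responsive genes had a median of 0.006 over 17 (-0.0869 after median scaling), with the heme-degrading enzyme Hmox1 at 0.49 ± 0.30 and opposite signs within E1 (-0.41) and E3 (1.18). Glycolysis and HIF-responsive genes had a median of -0.017 over 26, and 0.0355 without the Unstim array of E3. Among them the angiogenic factor Vegfa measured 7.69, 7.36, 7.68 and 7.53 in FA cells, against 8.31, 7.93 and 8.0 in Unstim cells (-0.51 ± 0.22). Alternative activation genes had a median of -0.030 over 17, 0.0067 with the experiment as a block and 0.0283 without the Unstim array of E1, with the resistin-like Retnla at -0.37 ± 0.13 and the lectin Clec10a at 0.30 ± 0.15. Cell cycle genes had a median of 0.010 over 21, -0.009 after median scaling, 0.053 with the block and -0.0166 without the FA array of E3, with the cyclin Ccnd1 at 0.54 ± 0.16 and the thymidylate synthase Tyms at 0.21 ± 0.09. Other probes measured 0.50 and 0.17 for Ccnd1, and -0.13 and 0.11 for Tyms.

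Over all tested genes, members of the lists included, 229 had an unadjusted p below 0.05, groups without overlap and the same sign within all 3 pairs, 109 higher and 120 lower. Of these only Scd1 was called. The p cut alone was met by 2.88% of all genes, below the share of about 0.05 that meets it where no gene differs. The 15 with the highest log2 difference ran from 0.346 to 1.67. Besides those described, they held Vsig8, an immunoglobulin-domain membrane protein, at 7.16, 7.09, 8.24 and 7.46 in FA cells, against 6.61, 6.62 and 6.54 in Unstim cells (0.90 ± 0.20). The superoxide dismutase Sod1 measured 10.12, 10.38, 10.68 and 10.50 in FA cells, against 9.61, 9.98 and 9.75 in Unstim cells (0.64 ± 0.16, with 0.12 ± 0.08 for a probe near background). The transferrin receptor Tfrc (0.51 ± 0.23), the chemokine Ccl9 (0.51 ± 0.23) and the membrane protein gene Tm6sf1 (0.49 ± 0.19) followed. The lipid-binding chaperone Unc119 (0.38 ± 0.14), the CD300 family receptors Cd300ld (0.36 ± 0.11) and Cd300a (0.36 ± 0.12), and the lysosomal phospholipase Pla2g15 (0.35 ± 0.09) made up the rest. Other probes measured 0.57 for Tfrc, 0.19 for Tm6sf1, 0.38 for Unc119, and 0.16 and -0.08 for Cd300a.

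The 15 with the lowest difference ran from -1.88 to -0.537. They included 3 membrane transporters: the organic anion carrier Slco4a1 (-0.83 ± 0.26), Slc2a6 of the glucose transporter family (-0.75 ± 0.21) and the betaine carrier Slc6a12 (-0.70 ± 0.15). Slc2a6 was even across FA cells, at 9.53, 9.58, 9.45 and 9.52, against 10.06, 10.45 and 10.31 in Unstim cells. Wfdc17, a small secreted protein of macrophages, measured -0.63 ± 0.15, the stress-induced Gadd45a -0.63 ± 0.23, von Willebrand factor, Vwf, -0.62 ± 0.22, the protease inhibitor Slpi -0.54 ± 0.24 and the adhesion receptor Adgre5 -0.54 ± 0.19. The fringe glycosyltransferase Mfng lay outside this set and was called only without the Unstim array of E3 (-0.56, adjusted p = 0.0329), with -0.39 ± 0.10 over all arrays and -0.16 ± 0.07 for its other probe.

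The same fatty acid comparison was made in LPS-treated cells, 4 arrays with fatty acid and LPS at 10 ng/ml (FA+LPS) against 4 with LPS alone. They share no array with FA and Unstim but come from the same experiments, E1 to E4. Deviations of arrays of the same experiment correlated at a median of 0.2225, so the comparisons are not independent. In LPS-treated cells limma called 89 genes (0.685%), 49 higher (0.377%) and 40 lower (0.308%). Of the 109 genes higher without LPS, 79 were higher with LPS (72.5%), where 52.8% of all genes were, and 4 of them were called. Of the 120 genes lower without LPS, 63 were lower with LPS (52.5%), where 47.2% of all genes were, and 1 was called. All 15 of the genes with the highest difference were higher with LPS as well and 2 were called, Etfb (1.09, adjusted p = 0.00708) and Slc25a20 (0.89, adjusted p = 0.00326). Of the 15 with the lowest difference, 11 were lower with LPS and none was called. Plin2 was called with LPS (1.65, adjusted p = 0.00313) and Angptl4 was not (2.66, adjusted p = 0.0514).

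**Figure D4:**
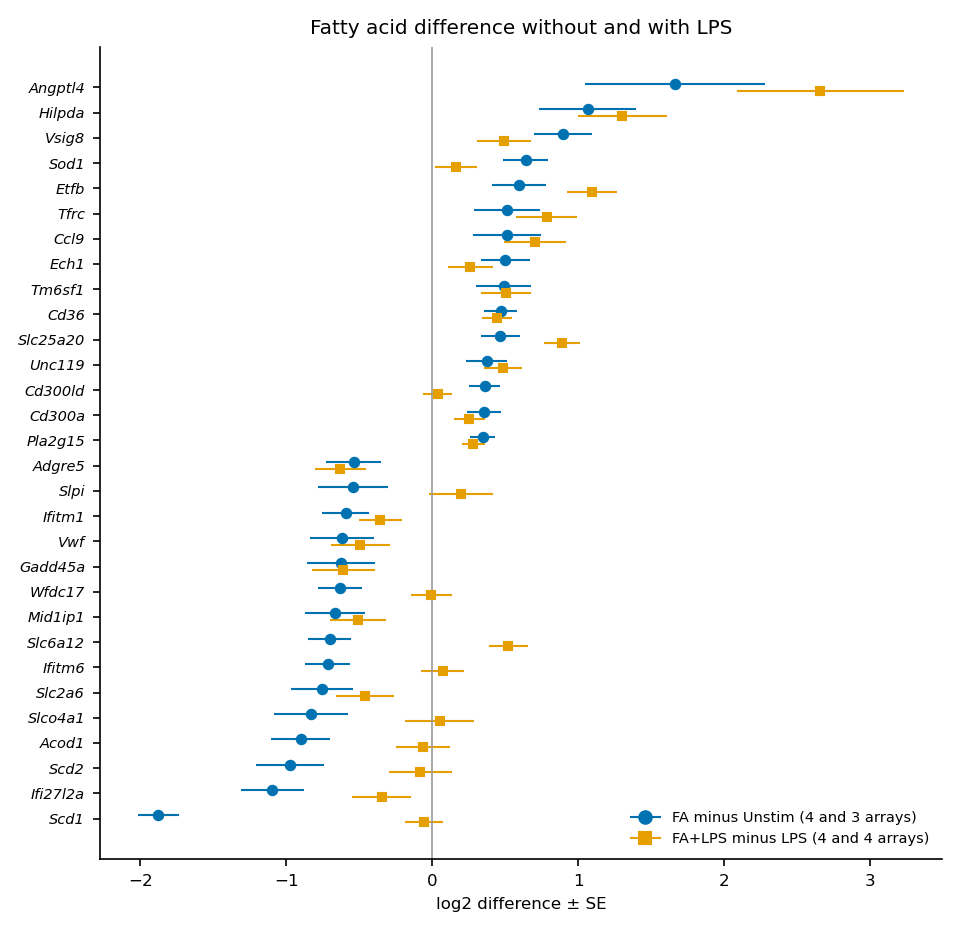
Log2 difference ± SE (x axis) with fatty acid for 30 genes, the 15 highest and 15 lowest of the comparison without LPS (rows). Circles are FA minus Unstim and squares FA+LPS minus LPS. All 15 upper genes have squares right of 0, while the square of Scd1 lies at -0.06 and that of Slc6a12 at 0.52.

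The interaction, the fatty acid difference with LPS minus that without, was called for 6 genes (0.0462%), and Scd1 had the lowest p of them. With LPS, Scd1 measured 6.80, 6.82, 6.47 and 6.25 in FA+LPS cells of E1 to E4, against 6.59, 6.97, 6.65 and 6.37 in LPS cells, a difference of -0.06 (adjusted p = 0.987). The LPS cells without fatty acid stood near the level of the FA cells, which was close to background. That left little room for a fall with LPS. A smaller response and a signal too low to fall further cannot be told apart here. The interaction was 1.82 ± 0.19 (limma, adjusted p = 0.00173). None of the 6 was called after median scaling, where Scd1 had 1.85 (adjusted p = 0.4). Slc6a12 was lower with fatty acid without LPS and measured 0.52 with LPS (adjusted p = 0.108), an interaction of 1.22 ± 0.20 (adjusted p = 0.0498, and 0.9995 after median scaling). For the lists, the sterol genes had a median of 0.381 with LPS, all 20 higher, against -0.058 without it, and the interferon-responsive genes had -0.432 with LPS against -0.100 without it. The difference between these list medians was not tested.

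The arrays lay on 3 slides, as the array numbers in the labels show. FA_E1, FA_E4 and Unstim_E1 were on slide 1, FA_E2 on slide 2 without an Unstim array, and FA_E3, Unstim_E3 and Unstim_E4 on slide 3, so the arrays of the E4 pair lay on different slides. Scd1 measured -1.90 within slide 1 and -1.90 within slide 3, and -1.90 with slide as a block (limma, adjusted p = 0.000228). Angptl4 measured 1.10 within slide 1 and 3.54 within slide 3, and Hilpda 0.83 and 1.96. The oxidation list had a median of 0.080 within slide 1 and 0.220 within slide 3, and the synthesis and desaturation list -0.140 and -0.093.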

How the data were processed

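The authors deposited log2 signals of 45281 probes, not normalized between arrays and without detection p-values, and a value table of log2 signals for 25784 of them, quantile normalized. The sources used here do not give the rule for retaining probes or any earlier background step. From the first table, signals were taken off the log2 scale, corrected with normexp (offset 50), quantile normalized and returned to log2. The background level of an array was the 95th percentile over the 19497 probes missing from the value table. Probes of the value table above this level on at least 3 arrays were kept (24195). Genes were named from the platform annotation: 21476 retained probes had 1 symbol, 10 several and 4298 none. The brightest probe stood for a gene, giving 12984 genes.

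limma (version 3.58.1, R 4.3.3) was fitted over all 15 arrays, with a term for group alone (11 residual degrees of freedom, 3.2 prior). The 2-sided p-values were adjusted over all genes (Benjamini-Hochberg), and a gene was called below 0.05. Adjusted p-values near 1 are common here, since few genes stand out. Named genes were those called in any fit with 5 or fewer calls, the 15 highest and 15 lowest genes among those with unadjusted p below 0.05, no overlap and 1 sign within all pairs, a preset group of genes of lipid handling and inflammation, and up to 4 members of each other list by p. The checks of sign and of outlying arrays used 87 genes: Acss2, Eci2 and those of the named genes picked for description. The members and lists were chosen with earlier results of these data known, and some lists share genes. Differences are on the log2 signal scale, which compresses differences of dim probes, and levels of different probes were not compared.

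The experiment numbers pair the arrays by the labels. The deviations from group means of the FA and Unstim arrays of 1 experiment correlated across genes at 0.258 (E1), 0.230 (E3) and 0.0552 (E4). Over all groups the median was 0.2225 for 21 array pairs of the same experiment and -0.07452 for 63 of different ones. FA arrays correlated with each other at 0.984 to 0.993 and no 2 were copies. The number of arrays limits the precision.

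Alternatives were the experiment block, the complete pairs alone, the 7 arrays alone, slide as a block, median scaling, the authors' table, no background correction, no filter on dim probes, array weights, the mean over probes and leaving out each array.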

Additional observations from a re-analysis of the deposited data

Results flagged for a closer look

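Dixon's criterion, which chance alone meets in about 5% of groups, was applied to 89 items. These were the 87 genes picked for description, not all named genes, and each array's 95th percentile of the log2 signal and number of probes above background. In 7 of the genes, 1 of the 4 FA arrays stood apart from the others. The FA array of E3 was apart in 4 of them. It read 10.016 for the adhesion receptor Adgre5, where the other FA arrays read 10.719 to 10.812, 9.0824 for the nuclear receptor Pparg (others 9.6432 to 9.7303), 12.518 for the pentose phosphate enzyme Taldo1 (others 12.242 to 12.279) and 8.12 for the scavenger receptor Stab1 (others 7.3682 to 7.4785). The dim FA array of E1 read 6.8872 for Dgat1 (others 6.4217 to 6.4989) and 6.7716 for the dehydrogenase subunit Dld (others 6.4388 to 6.4907). The FA array of E4 read 7.7118 for Ifi27l2a (others 7.2432 to 7.3003).

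The fatty acid difference with LPS minus that without it passed limma's test for 6 genes, and for none of them after median scaling, where their adjusted p lay between 0.4 and 0.9995. It was 1.82 for Scd1 and 1.22 for Slc6a12, both lower with fatty acid without LPS. The level of Scd1 in LPS cells was near that of the FA cells, close to background. For the other 4, named here after their values were seen, the difference without LPS was small. It was -1.52 for the glycerol channel Aqp9 (adjusted p = 0.0197), with -1.74 with LPS and -0.22 without. It was 0.93 for the surface enzyme Bst1 (adjusted p = 0.0436), with 1.02 with LPS and 0.09 without. The peroxisomal oxidation enzyme Hsd17b4 had 0.62 (adjusted p = 0.0436), with 0.60 with LPS and -0.03 without. The pentraxin Ptx3 had -1.10 (adjusted p = 0.0436), with -1.08 with LPS and 0.02 without, and no FA or Unstim array was above background for it.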

How the results depend on the processing

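Scd1 was called lower under all 17 alternatives, by -1.97 to -1.86 with adjusted p from 9.241e-07 to 0.01474 (limma), the highest after median scaling. The number of genes called was 1 in all but the following: with the replicate block (the experiment) it was 3, with the block and the 3 complete pairs only it was 4 (Scd1, Scd2, Acod1 and Ifi27l2a), and when 1 array was left out it was 1 to 2. The pairing changed no other call of FA against Unstim. The interaction count of 6 became 20 with the replicate block and 0 after median scaling. Genes with an unadjusted p below 0.05 numbered 374, against 658 with the block, 792 in the complete pairs, 622 with array weights, 138 after median scaling (47 higher and 91 lower) and 273 to 456 with 1 array left out. Over the 87 genes picked for description and 17 alternatives, 1451 of 1479 differences kept their sign, and 28, from 9 genes, did not. Named genes left out of this count included some with differences near 0, such as Gpam (-0.006) and Abhd5 (-0.018). Mgll measured -0.033 after median scaling and -0.011 to 0.27 with 1 array left out, Nr1h3 -0.017 after median scaling, Hadha 0.0030 with array weights and -0.11 to 0.028 with 1 left out, Etfdh -0.020 with the block, -0.092 with slide as a block, -0.0996 after median scaling and -0.067 to 0.14 with 1 left out, Abca1 -0.028 in the complete pairs and -0.035 to 0.054 with 1 array left out, Insig1 0.0036 with slide as a block and -0.32 to 0.067 with 1 left out, Pparg -0.23 to 0.075 and Il1b -0.18 to 0.0198 with 1 left out, and Ddit3 0.20 with the block, 0.043 in the complete pairs, 0.030 with slide as a block and -0.12 to 0.043 with 1 left out. The cause was not tested. Median scaling also turned the medians of the oxidation (-0.0118), droplet (-0.0611), lipolysis (-0.0329), uptake (-0.018), tricarboxylic acid cycle (-0.0695), LXR (-0.102), NRF2 (-0.0869), nuclear receptor (-0.0187) and cell cycle (-0.009) lists below 0, as it moved that of all genes to -0.0491. The interferon-responsive list had the lowest median in the fit reported, but not with the replicate block (-0.0239, sterol -0.123), median scaling (-0.123, sterol -0.185), slide as a block (-0.106, synthesis -0.109), or without the FA array (-0.0589, synthesis -0.126) of E3 or the Unstim array (-0.079, synthesis -0.134) of E4. The dim array FA_E1 had the lowest array weight (0.389). Scd1, Fads2 and other dim probes were near background in FA cells, which limits the size of a difference. Scd1 stood at a like level in LPS cells, which also bears on its interaction.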
